A study of Mus musculus with 14 samples.

Results

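Oligodendrocyte progenitor genes were followed with 7 probe sets of 4 genes, out of the 45101 probe sets on the array. They were taken by identifier: 1421916_at, 1421917_at and 1438946_at for Pdgfra, 1423341_at for Cspg4, 1424985_a_at and 1425369_a_at for Sox10, and 1416149_at for Olig1. All 7 were among the 35211 probe sets tested, those detected on at least 2 arrays. The array holds 2 further probe sets of these genes, 1450944_at for Cspg4 and 1451689_a_at for Sox10, which are given beside the 7 for comparison.

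Total RNA came from secondary neurospheres, which are the floating clusters that neural stem and progenitor cells make after a first generation of spheres has been taken apart. All spheres were grown from wild type CD-1 mice, an outbred strain, with no treatment. Adult spheres had 3 origins with 3 arrays each: neocortex, striatum and SVZ (subventricular zone, the stem cell layer lining the lateral ventricle). Embryonic spheres of stage E14.5 came from dorsal forebrain (2 arrays), ventral forebrain (2 arrays) and spinal cord (1 array). The age of the adults was not given, nor whether the samples of a group were separate animals or cultures, so the p-values measure only the spread between these samples. The spinal cord, with 1 array, entered no test.

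Oligodendrocyte progenitors are the dividing cells that give rise to the myelin-forming oligodendrocytes of the brain and spinal cord. Platelet-derived growth factor A, acting through the receptor encoded by Pdgfra, drives their division, and the proteoglycan NG2, encoded by Cspg4, is their classical surface marker. Olig1 and Sox10 encode transcription factors of the lineage that stay on as the cells mature. Sox10 with Myrf switches on myelin genes, whereas Pdgfra and Cspg4 are shut off on differentiation. None of the genes is private to the lineage: Pdgfra is also a fibroblast gene, Cspg4 a pericyte gene and Sox10 a neural crest and Schwann cell gene.

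The genes lie on mouse chromosomes 5 (Pdgfra), 9 (Cspg4), 15 (Sox10) and 16 (Olig1, beside Olig2). In RefSeq's GRCm38.p6 annotation, Pdgfra spans 75151322 to 75198206, Cspg4 56865104 to 56899870, Sox10 79154913 to 79164490 and Olig1 91269769 to 91271939. The 250 bases before the start site are shown for the 2 members with a promoter in the RefSeq table used here, to set the letters that lineage factors such as Sox10 and Olig1 are known to read beside the values. The Pdgfra window precedes the start site of the transcript in that table, which lies inside the gene's span. They lie at chr5:75152001-75152250 for Pdgfra and chr9:56864854-56865103 for Cspg4, both on the plus strand of GRCm38.p6, and capitals mark the E-box letters CANNTG, the core bound by basic helix-loop-helix factors such as Olig1.
Pdgfra: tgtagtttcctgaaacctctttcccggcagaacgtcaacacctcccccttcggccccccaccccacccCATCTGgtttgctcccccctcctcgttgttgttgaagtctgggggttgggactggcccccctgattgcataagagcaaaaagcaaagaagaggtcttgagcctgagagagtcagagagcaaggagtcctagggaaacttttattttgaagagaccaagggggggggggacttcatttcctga
Cspg4: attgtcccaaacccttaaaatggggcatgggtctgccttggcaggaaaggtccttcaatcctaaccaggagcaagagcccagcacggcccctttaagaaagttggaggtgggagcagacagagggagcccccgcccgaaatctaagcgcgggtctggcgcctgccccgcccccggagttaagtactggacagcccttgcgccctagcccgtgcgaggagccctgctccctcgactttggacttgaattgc
The Pdgfra window held 1 E-box and the Cspg4 window held 0. The SOX core letters ACAAAG or ACAATG, searched on both strands, were found in neither. Among 32851 windows of this length, 66.2% held an E-box and 25.2% a SOX core on either strand, and the motifs do not overlap in their letters.

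Array medians ran from 222.1 to 334.8 signal units and 60.2% to 68.6% of probe sets were detected on an array. Gapdh gave a log2 ratio of 3' over 5' signal of 1.061 to 1.335 on neocortical arrays. This ratio was 0.665 to 1.023 on striatal, 0.64 to 0.718 on SVZ and 1.013 to 1.208 on embryonic arrays. Neocortex thus lay above SVZ without overlap, and the part of this ratio in the regional differences was not tested. Changes are given on a scale of log2(signal + 26.995) after each array was centred on its median. Fold values are taken from that scale and so differ from ratios of mean signals, whereas levels, orders and overlaps are of deposited signals unless the centred scale is named. A probe set was called when its adjusted p from limma was under 0.05. The 4 embryonic forebrain arrays split by sample number before any comparison with the adult. On number 2 arrays all 7 probe sets were lower than on the number 1 array of the same region. At 2-fold or more in both regions, 5 of the 7 were higher in number 1, beside 5.16% of all tested probe sets, and at 4-fold or more 4 of the 7 were, beside 1.16%. The results for the 7 probe sets against embryonic forebrain are therefore given with both numbers and with each alone.

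**Figure D1:**
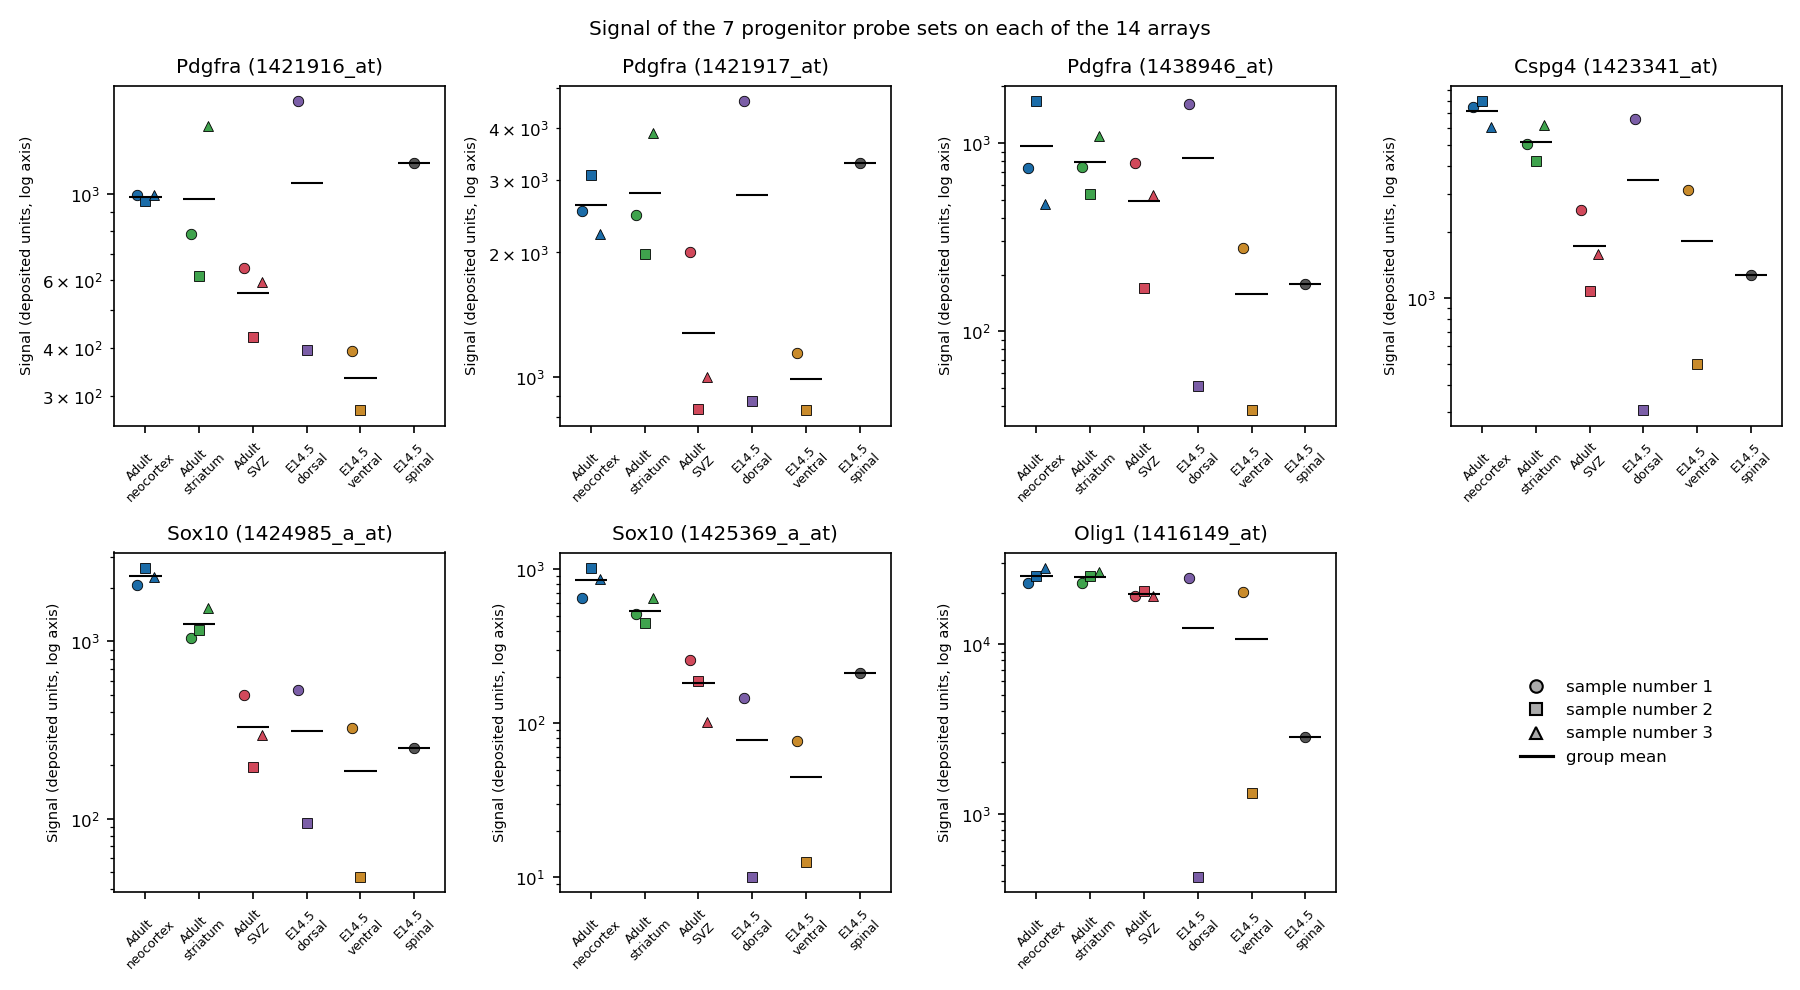
Deposited signal (log axis) of the 7 probe sets on each of the 14 arrays, by group; symbols give the sample number and black lines the group mean. Sox10 and Cspg4 step down from neocortex through striatum to SVZ, and the embryonic forebrain points of number 2 lie below those of number 1 in every panel.

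Pdgfra, the receptor, was detected on every adult array of all 3 regions by 1421917_at, the brightest of its probe sets. By 1421917_at the neocortical arrays read 2526, 3077 and 2217 signal units, the striatal arrays 2463, 1985 and 3900.2, and the SVZ arrays 2004, 833 and 1001. The SVZ arrays were the lowest as a set, apart from the first of them, which overlapped the striatum. By 1421916_at the values were 992, 959.7 and 993 in neocortex, 790.2, 613 and 1501 in striatum and 642, 426 and 594 in SVZ. The third probe set, 1438946_at, read 736, 1662 and 476 in neocortex, 745, 534 and 1089.9 in striatum and 778, 169 and 526 in SVZ, with overlap between all 3 regions.

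Neocortex exceeded SVZ by 0.61 ± 0.45 (log2, SE), 0.89 ± 0.51 and 0.75 ± 0.96 for 1421916_at, 1421917_at and 1438946_at, and none was called (limma adjusted p = 0.43, 0.288 and 0.664). Striatum exceeded SVZ by 0.58, 1.04 and 0.71, again with no call (adjusted p = 0.583, 0.343 and 0.78). Neocortex and striatum differed by 0.02 ± 0.45, -0.14 ± 0.51 and 0.04 ± 0.96, differences smaller than their errors. The 3 probe sets ran together over the 9 adult arrays, with Pearson correlations of 0.873, 0.694 and 0.816 between their log2 values, as a description.

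Embryonic Pdgfra was highest in the first dorsal sample. There 1421917_at read 4643, above every adult array, against 873 in the second dorsal sample, and it read 1142 and 830.4 in the ventral samples. The spinal cord array read 3303 for this probe set and 1204 for 1421916_at, within the adult range, but 179 for 1438946_at, close to the lowest adult array. The probe sets of the gene thus disagree in the spinal cord. Dorsal exceeded ventral by 1.35 ± 0.56, 1.11 ± 0.62 and 1.43 ± 1.17 without a call (adjusted p = 0.916, 1.0 and 1.0). Within number 1 the dorsal excess was 2.13, 2.06 and 2.49, and within number 2 it was 0.58, 0.17 and 0.36.

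Cspg4, the NG2 proteoglycan, stepped down across the adult regions. 1423341_at read 7455, 7941 and 6091 in neocortex, 5052, 4217 and 6205 in striatum and 2539.9, 1074 and 1581 in SVZ. Every SVZ array lay below every neocortical and striatal array, while neocortex and striatum overlapped. The second probe set, 1450944_at, was dimmer and kept this order, at 664 ± 186 (SD, n = 3), 433 ± 117 and 213 ± 81.4.

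The mean signal was 7162 ± 959 (SD, n = 3) in neocortex and 1732 ± 745 in SVZ. On the centred log2 scale neocortex was higher by 1.90 ± 0.86, which is 3.73-fold. With all 14 arrays sharing 1 estimate of the spread, this was not called (limma adjusted p = 0.183). With only the neocortical and SVZ arrays in the fit the SE was 0.27 and the difference was called (adjusted p = 0.000647). Striatum stood 2.86-fold above SVZ, 1.52 ± 0.86, with adjusted p = 0.425 over all arrays and 0.0107 over the compared arrays alone. The shared spread holds the embryonic forebrain pairs, in which Cspg4 differed 20.5-fold (dorsal) and 6.33-fold (ventral) within a group.

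In embryonic spheres 1423341_at read 6617 and 306 in the dorsal samples, 3135 and 499.9 in the ventral samples and 1275 in the spinal cord. The first dorsal sample was at the level of adult neocortex and striatum, and both number 2 samples were below every adult array. Dorsal and ventral forebrain overlapped, and their difference of 0.28 ± 1.06 was not called (adjusted p = 1.0). Dorsal minus ventral was 1.13 within number 1 and -0.57 within number 2, so the direction was not shared.

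Sox10 had the largest neocortex to SVZ difference of the 7 probe sets, by 1424985_a_at. This probe set read 2076, 2599 and 2301 in neocortex, 1046, 1157 and 1543 in striatum and 498, 195 and 298 in SVZ. 1425369_a_at read 652, 1021 and 872 in neocortex, 516, 450.0 and 648 in striatum and 257, 188 and 103 in SVZ, where it was detected on 1 of 3 arrays. In both probe sets the 3 regions did not overlap, in the order neocortex, striatum, SVZ. The same order held for 1451689_a_at, with 4341 ± 668 (SD, n = 3), 2515 ± 489 and 627 ± 288.

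Neocortical Sox10 was 6.04-fold above SVZ by 1424985_a_at (2.59 ± 0.60, limma adjusted p = 0.0168) and 3.74-fold by 1425369_a_at (1.90 ± 0.55, adjusted p = 0.0438), and it was called by both. They were the only calls among the 7 probe sets in this comparison, 2 of 7 where 10.5% of all tested probe sets were called, of which 4.3% were higher and 6.21% lower in neocortex, and the median change of all tested probe sets was -0.16. The deposited signals of neocortex and SVZ did not overlap for 6 of the 7, as in 33.4% of tested probe sets. 1451689_a_at differed by 2.61 ± 0.87 and was not called (adjusted p = 0.076). Over the compared arrays alone 3 of the 7 were called, both Sox10 probe sets and Cspg4, beside a background of 18.6%. In the fit over all arrays, the call of 1425369_a_at was lost without any single neocortical or SVZ array (adjusted p = 0.0642 to 0.152). That of 1424985_a_at was lost without neocortex 2, neocortex 3, SVZ 2 or SVZ 3 (adjusted p = 0.0623, 0.0591, 0.0678 and 0.0574), with differences of 2.29 to 2.60.

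Striatal Sox10 exceeded SVZ by 1.79 ± 0.60 and 1.38 ± 0.55, with adjusted p = 0.157 and 0.238. Of the 7 probe sets 0 were called here by limma, 2 had an unadjusted p under 0.05 (0.0107 and 0.0264, both Sox10), and the background was 2.31% (1.7% higher and 0.611% lower in striatum). The arrays did not overlap for 4 of the 7, namely Cspg4, both Sox10 probe sets and Olig1, beside 26.3%. Over the compared arrays alone the Sox10 differences were called (adjusted p = 0.00888 and 0.043), as was Cspg4, 3 of 7 beside 6.38%. Neocortex exceeded striatum by 0.80 ± 0.60 and 0.53 ± 0.55 without a call (adjusted p = 0.756 and 0.836). In that comparison 0 of the 7 were called and 0 had an unadjusted p under 0.05, beside a background of 0.471% (0.417% higher and 0.054% lower in neocortex), and the array values of neither Sox10 probe set overlapped, as in 17.2% of tested probe sets.

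**Figure D2:**
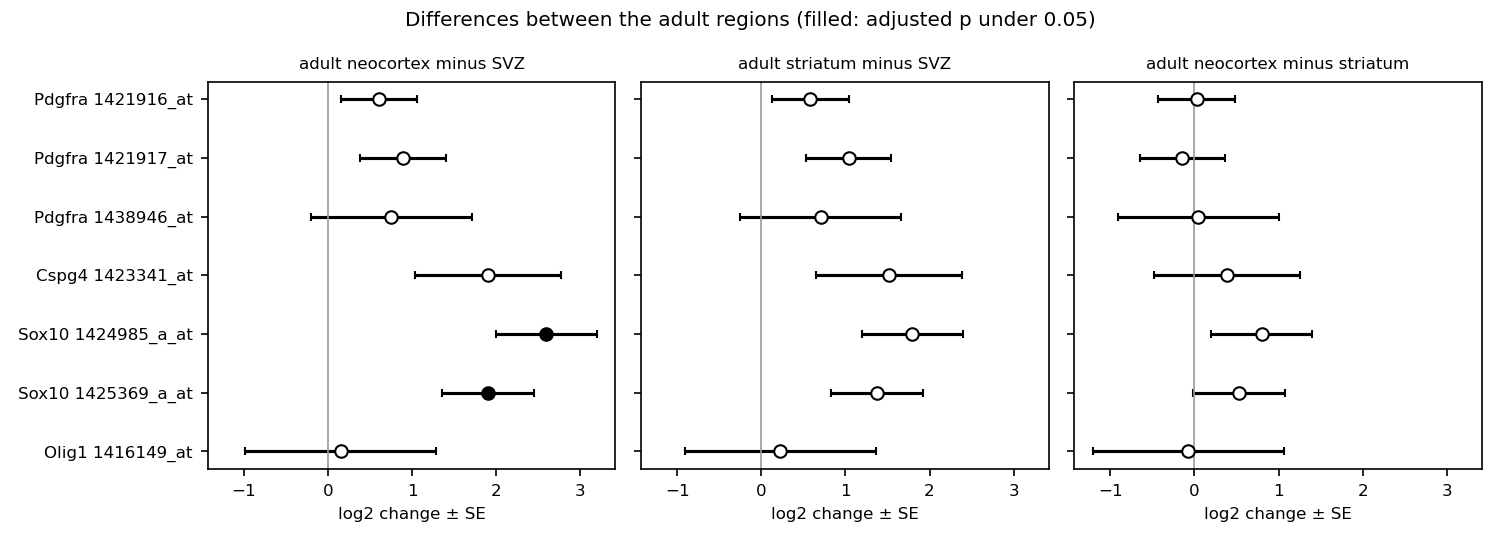
Log2 change ± SE of the 7 probe sets between the adult regions, from the fit over all 14 arrays; filled points were called. Only the Sox10 points in neocortex minus SVZ are filled, at 2.59 and 1.90, and the Olig1 points lie near 0.

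In embryonic spheres Sox10 was low beside neocortex and striatum, but not always beside SVZ. 1424985_a_at read 532 and 94.5 in the dorsal samples, 325 and 47.1 in the ventral samples and 249.6 in the spinal cord. 1425369_a_at read 146 and 10.1, 76.4 and 12.6, and 213 in the same order, and it was detected on neither ventral array. All forebrain arrays lay below every neocortical and striatal array in both probe sets. For 1424985_a_at the first dorsal sample was above every SVZ array in deposited signal but below the first SVZ array on the centred scale (9.17 against 9.29), and the first ventral sample lay among the SVZ arrays. By 1451689_a_at the dorsal samples read 785 and 2.7, the ventral samples 315 and 79.6 and the spinal cord 762, beside an SVZ mean of 627.

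Olig1, in contrast, was nearly level across the adult regions. 1416149_at read 22679, 24973 and 27998 in neocortex, 22898, 24991 and 26524 in striatum and 19177, 20388 and 19179 in SVZ. SVZ was lowest in the deposited signals without overlap, by 0.15 ± 1.14 against neocortex and 0.23 ± 1.14 against striatum, and after centring the neocortical and SVZ arrays overlapped. Neither difference was called over all arrays (adjusted p = 0.951 and 0.952) or over the compared arrays alone, where the SE was 0.11 for neocortex and 0.12 for striatum (adjusted p = 0.362 and 0.283). Across the 9 adult arrays Olig1 spanned 0.38 on the log2 scale, against 2.65 for Cspg4, 3.36 and 2.84 for Sox10 and 1.57 to 2.90 for Pdgfra.

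In embryonic forebrain Olig1 differed more between sample numbers than between regions. The number 1 samples read 24509 (dorsal) and 20073 (ventral), within the adult range of deposited signals, and the number 2 samples read 425 and 1314. After centring the first ventral sample lay just below the lowest adult array (14.28 against 14.36). The spinal cord array read 2819. The number 1 level was 55.9-fold (dorsal) and 15.8-fold (ventral) above number 2, the widest gap of the 7 probe sets in each region. Olig2, the neighbouring gene and partner factor, split by sample number in the same way by 1416232_at. It read 11373 and 108 in the dorsal samples and 7979 and 1035 in the ventral samples. In the spinal cord Olig2 read 343, below the second ventral sample, whereas Olig1 there lay above both number 2 samples.

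Against the embryonic forebrain as a whole, the mean over the 3 adult regions was higher for Sox10 and Olig1. In SVZ alone 1424985_a_at averaged 330 signal units, beside 313 in dorsal forebrain, with overlap, and 186 in ventral forebrain. The adult SDs below hold these region differences. Mean adult Sox10 by 1424985_a_at was 1301 ± 888 (SD, n = 9) against 249.8 ± 224 (n = 4), a difference of 2.37 ± 0.44 (limma adjusted p = 0.000934). By 1425369_a_at it was 523 ± 310 against 61.3 ± 64.2, a difference of 2.77 ± 0.40 (adjusted p = 0.000157). Olig1 differed by 2.56 ± 0.84 (adjusted p = 0.0259). These were 3 calls of 7, beside 41.2% of all tested probe sets. Cspg4 differed by 1.60 ± 0.64 (adjusted p = 0.0613) and Pdgfra by 0.64 ± 0.33, 0.61 ± 0.37 and 1.67 ± 0.70 (adjusted p = 0.145, 0.218 and 0.0746), without a call. The adult and embryonic arrays overlapped for all 7, so 0 of 7 were apart, beside 21.4% of tested probe sets. Of the background calls, 21.6% of tested probe sets were higher and 19.6% lower in the adult.

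Most of these values turned on which embryonic arrays entered. Against the number 1 arrays alone, the adult differed in Olig1 by 0.11 ± 0.10 (adjusted p = 0.44), in Cspg4 by -0.16 ± 0.25 (adjusted p = 0.69) and in Pdgfra by -0.022 ± 0.28, -0.13 ± 0.30 and -0.011 ± 0.49 (adjusted p = 0.965, 0.792 and 0.991). Sox10 alone was called there, at 1.23 ± 0.29 (adjusted p = 0.0057) and 1.84 ± 0.33 (adjusted p = 0.00101), 2 of 7 beside a background of 28.8%. Against the number 2 arrays alone all 7 were called, beside 45.1%, from 1.30 ± 0.28 for Pdgfra by 1421916_at to 5.01 ± 0.10 for Olig1. Sox10 was called against either pair, whereas the other 3 genes were called against the number 2 pair and not against the number 1 pair. Leaving out the second dorsal or the second ventral array singly also ended the Olig1 call (1.11, adjusted p = 0.153, and 1.57, adjusted p = 0.167). Leaving out the first dorsal array gave 7 calls of 7 beside 41.3% of all tested probe sets, and leaving out the first ventral array 5 of 7 beside 42.4%.

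**Figure D3:**
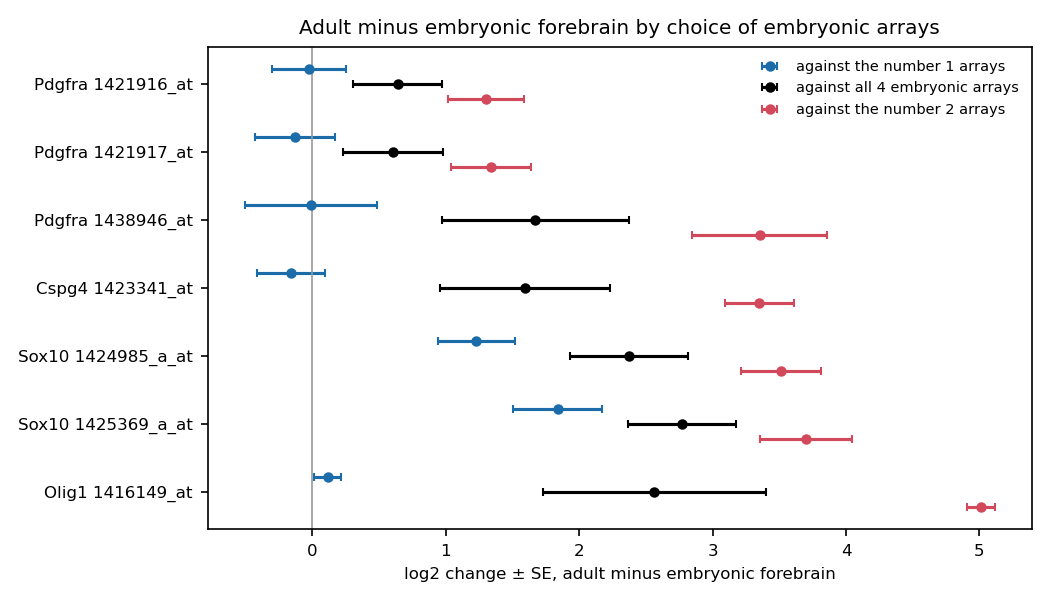
Log2 change ± SE, adult minus embryonic forebrain, for the 7 probe sets against the number 1 arrays, all 4 arrays and the number 2 arrays. Against number 1 only the Sox10 points stand away from 0, at 1.23 and 1.84, whereas against number 2 the points run from 1.30 to 5.01.

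Matched by origin, neocortex exceeded dorsal forebrain in Sox10 by 3.12 ± 0.67 and 3.38 ± 0.61 (limma adjusted p = 0.00566 and 0.0021), 2 of 7 called beside 22.7%. Without the second dorsal array the first of these was 2.00 and no longer called (adjusted p = 0.0857). Olig1 exceeded dorsal forebrain by 2.87 ± 1.27 (adjusted p = 0.124) and stood at -0.036 without that array. Pdgfra stood at 0.17 ± 0.51, 0.30 ± 0.57 and 1.22 ± 1.07 above dorsal forebrain with both arrays, and at -0.88, -0.91 and -0.99 against number 1 alone, without a call. Without the first dorsal array the neocortical excess was 5.77 for Olig1 (adjusted p = 0.00101) and 4.39 for Cspg4 (adjusted p = 0.00121), and 6 of the 7 were called beside 23.4%. With number 1 arrays only in the fit 2 of the 7 were called beside 16.5%, and with number 2 only 7 of the 7 beside 29.6%.

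Striatum exceeded ventral forebrain in Sox10 by 3.09 ± 0.67 (adjusted p = 0.00724) for 1424985_a_at. For 1425369_a_at, undetected on both ventral arrays, striatum was at least 9.05-fold higher (adjusted p = 0.00318). The bound sets its mean against the lowest signal, on each ventral array, of probe sets detected on both, or the probe set's own where higher. These were 2 calls of 7 beside 19.3%, and the arrays did not overlap for any of the 7, beside 49.4%. Over the compared arrays alone 4 of the 7 were called beside 11.4%, with 2 of the Pdgfra probe sets (1421917_at and 1438946_at) added, and 4 also with sample number as a block (22.4%). Without the second ventral array neither was called (adjusted p = 0.127 and 0.06), and without the first 5 of the 7 were, beside 25.2%. The calls were 2 of 7 with number 1 only (9.87%) and 7 of 7 with number 2 only (30.3%).

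SVZ exceeded ventral forebrain with a call in 1425369_a_at alone (adjusted p = 0.0338), 1 of 7 beside 31.1%. This probe set was detected on only 1 SVZ array and on neither ventral array. Its 3.49-fold value, set against the ventral detection limit, is therefore not a lower bound. That call was lost without SVZ 1, SVZ 2 or the second ventral array (adjusted p = 0.109, 0.0761 and 0.318), and 3 of the 7 were called without the first ventral array, beside 32.1%. Over the compared arrays alone the adjusted p of 1425369_a_at was 0.051 and 0 of the 7 were called, beside 24.6%. With number 1 only 0 of the 7 were called (21.4%, adjusted p of 1425369_a_at 0.118) and with number 2 only 6 (36.6%). Cspg4 in SVZ stood 0.60 ± 0.97 above ventral forebrain and at -0.73 without the second ventral array.

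Dorsal and ventral forebrain gave 0 calls among the 7 beside 0.0398% of all tested probe sets. For 1421916_at the unadjusted limma p was 0.0302, the only one of the members under 0.05. The arrays of the regions did not overlap for that probe set alone, beside 23.5%. The test of whether the adult minus embryonic change differs between cortical and striatal origin gave 0 calls by limma among the 7 and 0.0% of all tested probe sets, and 0 of the 7 had an unadjusted p under 0.05. Its values ran from -1.38 ± 1.51 for Pdgfra by 1438946_at to 0.49 ± 1.80 for Olig1. With number 1 embryonic arrays only 0 of the 7 were called beside 0.133%, and the Olig1 value was -0.43. With number 2 only 1 of the 7 was called beside 0.946%, namely Olig1 at 1.40 ± 0.22 (limma adjusted p = 0.00958).

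With sample number as a block within each stage, added after seeing the data, 3 of the 7 were called in neocortex minus SVZ (23.9%), 3 in striatum minus SVZ (10.6%) and 0 in neocortex minus striatum (2.36%), which was 0 of 7 with the block over all arrays too (0.594%). In the same fit 6 were called in adult minus embryonic forebrain (49.3%), 4 in neocortex minus dorsal (35%), 7 in striatum minus ventral (31.8%) and 5 in SVZ minus ventral (41.4%).

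The order of the group means, taken from deposited signals, differed by gene. For Sox10 neocortex led, then striatum, without overlap. The groups that followed overlapped their neighbours in that order. Cspg4 ran neocortex, striatum, dorsal, ventral, SVZ, spinal cord, and each neighbouring pair overlapped. Olig1 ran neocortex, striatum, SVZ, dorsal, ventral, spinal cord, with a gap in the deposited signals only between striatum and SVZ. For Pdgfra the spinal cord led by 1421916_at and 1421917_at and stood next to last by 1438946_at. On the centred scale some of these orders changed. There the striatum led for 1421917_at (11.47 against 11.42 in the spinal cord), striatum stood above neocortex for Olig1 (14.67 against 14.59), and SVZ stood above dorsal and ventral forebrain for Cspg4.

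Markers of other cells moved with the groups, and their part in these values was not tested. The summed signal of 7 microglial markers was 24250 to 34600 in neocortex, 3546 to 6739 in striatum and 397 to 791 in SVZ, the same order as Sox10 and Cspg4. Pericytes can carry Cspg4, and the sum of their markers ran the other way in the adult, at 3963 to 4515 in neocortex and 5354 to 9644 in SVZ (6 genes). Rgs5 made up most of that rise (means of 1328 and 5595), and Notch3 and Kcnj8 were also higher in SVZ. Kcnj8 was detected on 0 neocortical arrays and 1 SVZ array. Pdgfrb (258 and 27.7) and Anpep (1546 and 68.0) were instead higher in neocortex, so the pericyte genes were not of 1 direction. Abcc9 (50.2 and 11.6) was not detected on any adult array. Among embryonic forebrain arrays, endothelial markers (4 genes) summed to 103 and 236 in number 1 and 5907 and 3966 in number 2. Microglial markers summed to 321 and 457 against 4512 and 3491, pericyte markers to 1150 and 1673 against 11260 and 10760, and neuronal markers (5 genes) to 67410 and 78510 against 106700 and 129500.

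In endothelial, pericyte, microglial and neuronal markers the spinal cord array summed to 6992, 13370, 9177 and 130300. Among embryonic forebrain arrays, the second dorsal and ventral samples lay nearer to these sums than the first ones did. The spinal cord array stood apart in fibroblast, skeletal muscle and Schwann or neural crest markers. Fibroblast markers (6 genes, such as Col1a1 and Col3a1) summed to 90270 there against 740 to 1427 in the adult arrays, and to 30990 in the second dorsal sample. Skeletal muscle markers (5 genes) summed to 34780 and Schwann or neural crest markers (5 genes measured of 6) to 8419 in the spinal cord, with at most 2142 and 2134 elsewhere. Pdgfra and Sox10 belong to those cells too, and their share in the spinal cord values was not tested. In bulk RNA of this kind, fewer cells of a type and less RNA per cell cannot be told apart.

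The progenitor list holds the 4 genes themselves. The summed signal of 7 progenitor markers (the 4 genes with Olig2, Gpr17 and Ptprz1) was 52490 to 70200 over adult arrays and 63570 and 49830 in the number 1 embryonic forebrain arrays. It was 8715 and 11080 in the number 2 arrays and 11620 in the spinal cord. Gpr17, a receptor of progenitors about to differentiate, was dim, with a neocortical mean of 106, a striatal mean of 145 and an SVZ mean of 59.3, and it was detected on 7 of 14 arrays and on 0 of the 3 SVZ arrays. Ptprz1, a phosphatase of progenitors and stem cells, and Olig1 made up most of the SVZ sum, and mean Ptprz1 was highest in the SVZ, at 23800, with 20060 in striatal and 16110 in neocortical spheres.

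The wider lineage was read from 4 gene lists, each gene by its brightest tested probe set. The lists were drawn up with earlier results of these data known. Their counts stand beside the shares of all tested probe sets: 4.3% rose and 6.21% fell in neocortex against SVZ, 1.7% and 0.611% in striatum against SVZ, and 21.6% and 19.6% in adult over embryonic forebrain, where 28.8% were called in either direction against number 1 and 45.1% against number 2. In the PDGF list of 6 ligands and receptors, 1 rose and 0 fell in neocortex against SVZ, with a median change of 0.66, and the gene that rose was Pdgfb (267.5 ± 80.8 (SD, n = 3) against 48.2 ± 34.1, limma adjusted p = 0.0495). Pdgfa, the progenitor mitogen, was 3886 ± 256 in neocortex, 3576 ± 557 in striatum and 4084 ± 520 in SVZ. It rose in adult over embryonic forebrain by 2.29 ± 0.16 (adjusted p = 4.74e-07), by 2.07 against number 1 and 2.51 against number 2. Pdgfc, another ligand of this receptor, fell by 0.78 (adjusted p = 0.00477), and against number 2 alone it was at -0.52 and not called. Pdgfrb, the receptor of pericytes, read 160.1 and 20.8 in number 1 and 2238 and 1387 in number 2.

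Of 16 lineage transcription factors tested, 2 rose and 2 fell in neocortex against SVZ, with a median change of 0.13. Myrf, the activator of myelin genes, rose by 3.03 ± 0.51 (adjusted p = 0.00257) and Nkx6-2 by 1.19 ± 0.24 (adjusted p = 0.00817). Sox9 and Hes5, factors of stem cells and astrocytes, fell by 1.88 and 1.90 (adjusted p = 0.0119 and 0.000312). Astrocyte markers (6 genes) summed to 47370 to 49200 in neocortex and 105100 to 111800 in SVZ. S100b alone ran against that sum, with an SVZ mean of 665.8, a striatal mean of 6140 and a neocortical mean of 10650. The part of these markers was not tested. In striatum against SVZ, 0 rose and Hes5 fell by 1.49 (adjusted p = 0.00806).

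In adult over embryonic forebrain 6 of these factors rose and 5 fell. Olig1, Olig2 (2.26 ± 0.85, adjusted p = 0.0477), Nkx2-2 (2.47 ± 0.77, adjusted p = 0.0212), Sox10, Myrf and Nkx6-2 rose. Hes5 fell by 3.11, Id4 by 2.52 and Sox5 by 1.75 (adjusted p = 1.06e-07, 2.6e-05 and 3.32e-05), and all were called against number 1 (-3.11, -1.83 and -1.46) and number 2 (-3.10, -3.21 and -2.03) alone. Against number 1 alone Olig2 and Nkx2-2 were at -0.10 and 0.23 and not called (adjusted p = 0.618 and 0.406), and 4 factors rose and 5 fell. Against number 2 alone 8 rose and 5 fell.

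Of 27 progenitor surface, matrix and signalling genes tested, 3 rose and 0 fell in neocortex against SVZ, with a median of 0.35. They were Cntn1, a contact protein of axons and glia (1.61 ± 0.40, adjusted p = 0.0226), Gria2, a glutamate receptor subunit (1.72 ± 0.24, adjusted p = 0.000835), and Tnr, tenascin R of the matrix (1.75 ± 0.49, adjusted p = 0.0375). Over the compared arrays alone 6 rose and 5 fell, where 18.6% of all tested probe sets were called in either direction. Among those that fell were Ptprz1 (-0.78), Vcan (-0.85) and Ncan (-0.45), matrix and surface genes shared by progenitors and stem cells, while Cspg4 and Lhfpl3 (1.80) rose. In adult over embryonic forebrain 14 rose and 6 fell with all arrays, 7 and 7 against number 1, and 16 and 7 against number 2.

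Committed oligodendrocyte and myelin genes formed the last list. In neocortex against SVZ 12 of 14 rose and 0 fell, with a median of 2.63, and in striatum against SVZ 10 rose and 0 fell, with a median of 1.90. Mbp, myelin basic protein, was 55660 ± 4006 (SD, n = 3) in neocortex, 43930 ± 2538 in striatum and 17990 ± 2607 in SVZ, a neocortical rise of 1.43 ± 0.17 (adjusted p = 0.000236). Ugt8a, which makes myelin galactolipids, rose by 3.84 ± 0.34 (adjusted p = 3.53e-05). Mal and Cldn11, membrane proteins of myelin, rose by 2.59 ± 0.30 (adjusted p = 0.00024) and 1.75 ± 0.49 (adjusted p = 0.0391). In adult over embryonic forebrain all 14 tested rose, with a median of 3.97, and all 14 rose against number 1 (3.88) and against number 2 (4.0) alone. Over all tested probe sets the median adult minus embryonic change was 0.01.

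**Figure D4:**
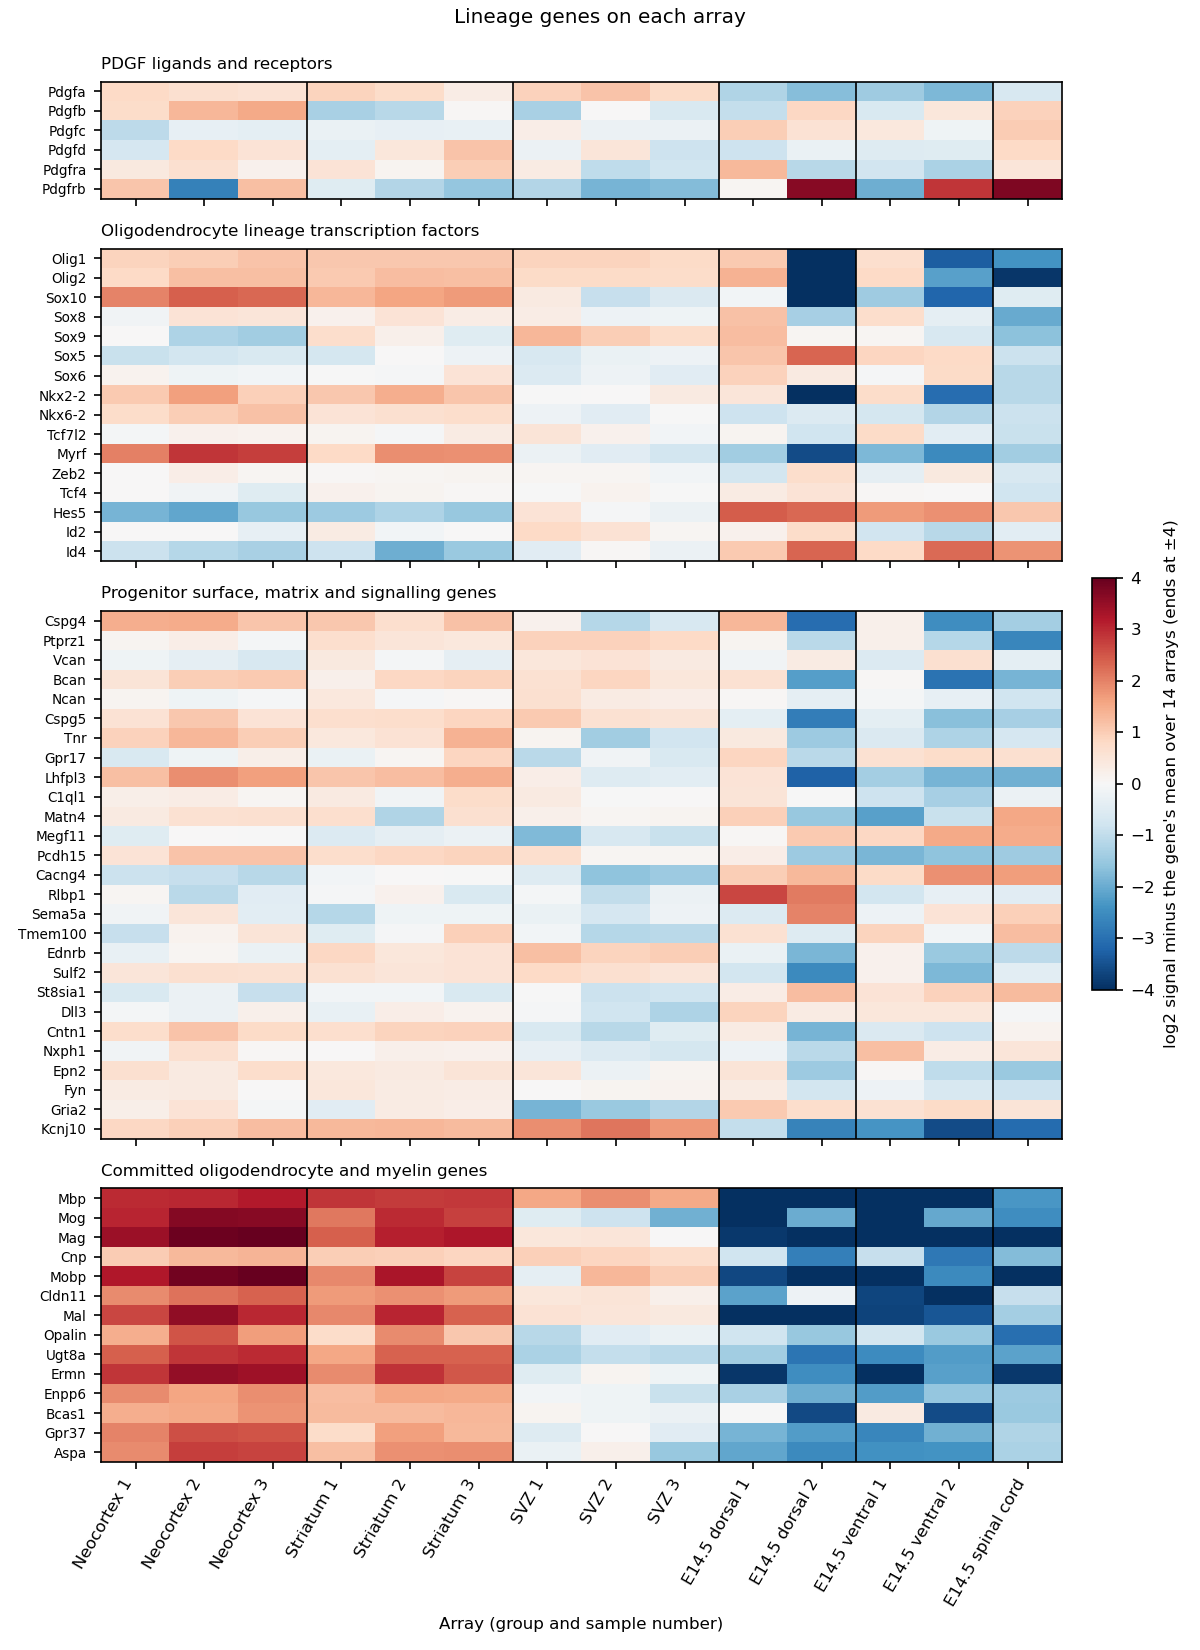
Log2 signal of each lineage gene minus its mean over the 14 arrays (columns, by group and sample number), in the 4 lists; red is above and blue below the gene's mean, and colour ends at ±4. The myelin block is red in neocortex and striatum and mostly blue in all embryonic arrays, whereas Olig1 and Olig2 are blue only in number 2 and spinal cord arrays.

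Among the members, Cspg4 and Sox10 ran closest over the 9 adult arrays, with Pearson r = 0.98 between 1423341_at and 1424985_a_at, as a description. These arrays share their regions, so the value reflects region means as well as single arrays. Between Olig1 and Olig2 (1416232_at) r was 0.967 over 14 arrays and 0.874 over 9.

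The genes whose pattern was most like each member over 14 arrays were ranked by Pearson correlation of log2 values, which share arrays and groups. For Sox10 by 1451689_a_at they were Tmcc3 (r = 0.983), Cntn1 (0.971), Thy1 (0.967), Lhfpl3 (0.957) and Skap2 (0.954), with 0.906 to 0.98 over the 9 adult arrays. For Cspg4 they were Comtd1 (0.963), Dock10, Lhfpl3, Tmcc3 and Arhgap31 (0.95), with 0.838 to 0.935 over the adult arrays. Tmcc3 and Lhfpl3 stood in both lists. For Pdgfra by 1421917_at the values were lower, from Rasl2-9 (0.851) through Slc2a6, Tnr and Tstd3 to Akap13 (0.795). For Olig1 they were Pvt1 (0.987), Arap2, Etv4, Qk and Egr2 (0.98), but over the 9 adult arrays the values ran from -0.15 to 0.58.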

How the data were processed

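Per the labels' protocols, total RNA from secondary neurospheres was purified with an RNeasy kit, labelled with biotin and hybridised to 14 one-colour Affymetrix mouse arrays. Per the file headers, the authors deposited a linear intensity (signal) and a detection p-value per probe set on every array. The sources used here do not name the summarisation software or its scaling. Detection p-values carry a group but no sample number, so detection was counted per group. A further 42 columns of per-sample values were not used.

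To each signal 26.995 was added, 0.1 times the median of the array medians (269.95), log2 was taken and each array was centred on its median. The 64 control probe sets were left out, and 35211 probe sets with detection p under 0.05 on at least 2 arrays were tested, leaving 9826 untested. limma 3.58.1 (R 4.3.3) fitted 1 mean per group to all 14 arrays, with trended empirical Bayes moderation. Tests were two-sided and p-values were adjusted by Benjamini and Hochberg over every tested probe set. Fold changes on this scale understate the change of dim probe sets. Gene symbols came from the platform annotation, which paired 34945 probe sets with 1 gene, 932 with several and 9160 with none here. Alternatives changed the pseudocount, centring, filter, arrays in the fit, weights and replicate block.

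Groups came from sample titles. Same-numbered neocortical and striatal arrays deviated together (correlations of deviations 0.25, 0.109 and 0.112), as did same-numbered dorsal and ventral arrays (0.577, equal for both numbers by construction in groups of 2). Striatum with SVZ gave 0.147, 0.133 and 0.046, below neocortex with striatum for numbers 1 and 3 but above it for number 2. The values were lower for neocortex with SVZ (0.031 to 0.064) than for neocortex with striatum. Headers of the detection table carry codes shared by 1 array of each adult region, and others shared by a dorsal and a ventral array, 1 of them also by the spinal cord. What the codes mean and which sample numbers they belong to is not given, and the labels state no pairing. The members and gene lists were chosen with earlier results of these data known. Named genes are the members, other probe sets of the 4 genes, the lineage list genes, with the brightest called ones as examples, and the 5 genes most correlated with each member gene. Further genes of the lists were named after their values were seen. The choice of number 1 or number 2 embryonic arrays and the block within stage were added after seeing the data.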

Additional observations from a re-analysis of the deposited data

How the results depend on the processing

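Of 770 alternative values for 46 member comparisons, 673 kept direction and side of the threshold, 45 newly passed it, 25 no longer did and 27 reversed. With number 1 arrays only, reversals were adult minus embryonic Pdgfra (-0.022, -0.13 and -0.011) and Cspg4 (-0.16), neocortex minus dorsal Pdgfra (-0.88, -0.91 and -0.99) and Olig1 (-0.036), SVZ minus ventral Cspg4 (-0.73) and the origin test of Olig1 (-0.43). The others came without single replicates, over which values ran as follows. Neocortex minus dorsal Pdgfra ran from -0.88 to 1.23, -0.91 to 1.51 and -0.99 to 3.44 and Olig1 from -0.036 to 5.77, and SVZ minus ventral Cspg4 from -0.73 to 1.93. Neocortex minus striatum Pdgfra ran from -0.26 to 0.34, -0.37 to 0.081 and -0.43 to 0.44, dorsal minus ventral Pdgfra by 1421917_at from -0.10 to 2.32 and by 1438946_at from -0.79 to 3.64, dorsal minus ventral Cspg4 from -1.90 to 2.46, and the origin test of Pdgfra by 1438946_at from -3.60 to 0.83 and of Olig1 from -2.42 to 3.39. The cause was not tested. Counts of called members moved as follows. No share of all tested probe sets is given here for array weights, the pseudocounts, no filter, values as deposited or most fits without single replicates. Those counts cannot be set against a background. Neocortex minus SVZ: 1 instead of 2 with the smaller pseudocount or no detection filter, and 0 to 1 without single replicates. Striatum minus SVZ: 3 instead of 0 with only the compared groups (6.38% of all tested probe sets), 2 with array weights and 3 with the replicate block within stage (10.6%). Adult minus embryonic forebrain: 6 instead of 3 with the block within stage, 7 with number 2 only, and 2 to 7 without single replicates. Neocortex minus dorsal: 4 instead of 2 with the block within stage, 7 with number 2 only, and 1 to 6 without single replicates. Striatum minus ventral: 4 instead of 2 with only the compared groups or the replicate block, 7 with the block within stage or number 2 only, and 0 to 5 without single replicates. SVZ minus ventral: 0 instead of 1 as deposited, with only the compared groups, with array weights or with number 1 only, 5 with the block within stage, 6 with number 2 only, and 0 to 3 without single replicates. The origin test gave 1 instead of 0 with number 2 only. Lineage list calls in neocortex minus SVZ were 33 instead of 20 with only the compared groups and 35 with the block within stage. For neocortex minus striatum and dorsal minus ventral the count stayed 0 under every alternative run, the replicate block included. Over all probe sets, calls rose from 3703 to 6550 (neocortex minus SVZ), 814 to 2247 (striatum minus SVZ) and 166 to 360 (neocortex minus striatum) with only the compared groups, and to 8410, 3717 and 831 with the block within stage. Few arrays limit precision, and the weakest member values, embryonic Sox10, lay near the detection limit.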
